A study of Mus musculus with 5 samples.

Results

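The Hippo kinase core and its upstream scaffolds were followed as 10 genes, Stk3, Stk4, Sav1, Lats1, Lats2, Taok1, Nf2, Wwc1, Wwc2 and Frmd6, chosen by symbol from the 23441 gene rows of a read count table. All 10 were found and all 10 passed the filter on low counts. The table holds 5 libraries of poly(A) RNA from the mandible of mouse embryos at embryonic day 10.5. The 2 dCKO (double conditional knockout) libraries have the genotype Wnt1Cre; Yapf/f, Tazf/f on a background of C57BL/6J x CBA/J; 129SvEv. The 3 control libraries have Yapf/f, Tazf/f with no Cre named, on 129SvEv. Floxed alleles of Yap and Taz are thus shared by all 5 libraries, and strain background and genotype cannot be told apart. Wnt1Cre is a recombinase driven from Wnt1 regulatory sequence, active in the premigratory neural crest, so that epithelium, endothelium, mesodermal core and blood in the dissected tissue are not its target. By its title the study asked about smooth muscle development and the part of Yap and Taz in neural crest, and its design sets mRNA levels of mutant against control mandibular tissue.

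The Hippo pathway restrains the coactivators YAP and TAZ (gene symbol Wwtr1), which bind TEAD transcription factors. The kinases MST1 and MST2, encoded by Stk4 and Stk3, act with the adaptor SAV1 to activate LATS1 and LATS2, and LATS kinases phosphorylate YAP and TAZ, which holds them in the cytoplasm or marks them for breakdown. NF2, the KIBRA family proteins WWC1 and WWC2, FRMD6 and the kinase TAOK1 act upstream, bringing LATS to the membrane or activating the kinases. Lats2 is itself a known transcriptional target of YAP and TAZ and forms part of a negative feedback loop.

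Library totals ran from 6491137 to 13298973 counts, the dCKO libraries being the deeper ones. Values are CPM, counts scaled to a common library total, with library sizes adjusted by TMM, a method that makes libraries comparable when a few abundant genes differ. Yap1, the gene of YAP, measured 174.4 and 169.7 CPM in dCKO replicates 1 and 2, against 311.4, 474.4 and 511.4 CPM in control replicates 1, 2 and 3. Wwtr1 measured 22.7 and 22.8 CPM in the dCKO libraries, against 38.3, 65.0 and 66.1 CPM in the controls. Control replicate 3 stood somewhat apart. Its root mean square log2 difference from controls 1 and 2 was 0.39 and 0.38, against 0.28 between those 2, and the arch gene Hand1 measured 5.49 CPM in it, against 87.8 and 91.4 CPM in controls 1 and 2. Markers fixed for the tissue were present in all libraries. The summed level of 14 cranial neural crest mesenchyme genes was 2004 to 2055 CPM in dCKO and 2034 to 2236 CPM in control libraries. That sum hides changes in both directions. Of the 14, 2 were called lower and 1 higher, against 1.42% and 5% of all tested genes. Of 10 mandibular arch patterning genes, 3 were called lower and 0 higher. The summed level of those 10 was 848.0 to 993.7 CPM in dCKO and 1012 to 1074 CPM in control libraries. The summed level of the erythroid list was 55730 to 79918 CPM in dCKO and 3413 to 4423 CPM in control libraries, with all 11 of its tested genes called higher. Hba-a1 and Hba-a2 of that list were at 0 in every library. Megakaryocyte and platelet genes summed to 150.8 to 292.7 CPM in dCKO and 19.7 to 29.9 CPM in control libraries. All 10 tested were called higher. Myeloid, neural and glial, and arch core mesoderm sums were also higher in both dCKO libraries than in any control. Of their tested genes, 1 of 7, 1 of 6 and 0 of 8 were called higher. Endothelial sums overlapped, with 1 of 12 called higher. The part of these cells in the members' values was not tested. Leaving the erythroid genes out before scaling kept the same 3 members called, with log2 fold changes of −0.85 for Lats2, −0.50 for Sav1 and −0.54 for Wwc2. That fit drops only the listed genes, not other RNA of blood cells, whose part in the members' values was not tested. In bulk tissue, fewer cells of a type and less RNA per cell cannot be told apart. The labels do not tie libraries to separate embryos. The p-values therefore rest on the spread between these 5 samples, some of which may be technical.

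Within the pathway, Lats2, Wwc2 and Sav1 fell in dCKO tissue, to folds of 0.557, 0.689 and 0.710 of the control level. The remaining 7 members missed the threshold, and Wwc1 alone had a higher fitted level in dCKO than in control tissue, at a fold of 1.18. Of all 12710 genes tested, 1.42% (180 genes) were called lower and 5% (636 genes) higher by edgeR's quasi-likelihood test at a Benjamini-Hochberg adjusted p below 0.05, or 6.42% in either direction. Scaling by library totals alone gave 472 genes lower and 531 higher, with the median of all genes at −0.08, and the same count of 3 members lower and 0 higher. Removing each library's trend with transcript GC content gave 656 lower and 470 higher with an ordinary loess, which moved the median of all genes to −0.10, and 153 lower and 561 higher with a robust loess. Members called lower then numbered 4 and 3. Log2 fold changes were below 0 for 9 of the 10 members, against 50.1% of all tested genes. The median log2 fold change of the members was −0.198, and that of all tested genes was −0.001. In 6 members (Lats2, Wwc2, Sav1, Frmd6, Nf2 and Stk4) both dCKO libraries lay below every control library, which 18.6% of all tested genes did. No member had both dCKO libraries above every control, against 19.0% of all tested genes. The summed level of all 10 members was 707.0 to 721.3 CPM in dCKO and 842.0 to 855.3 CPM in control libraries. Each member had 218 to 2449 counts in a library, so that counting error alone was 2.02% to 6.77% of a value.

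**Figure D1:**
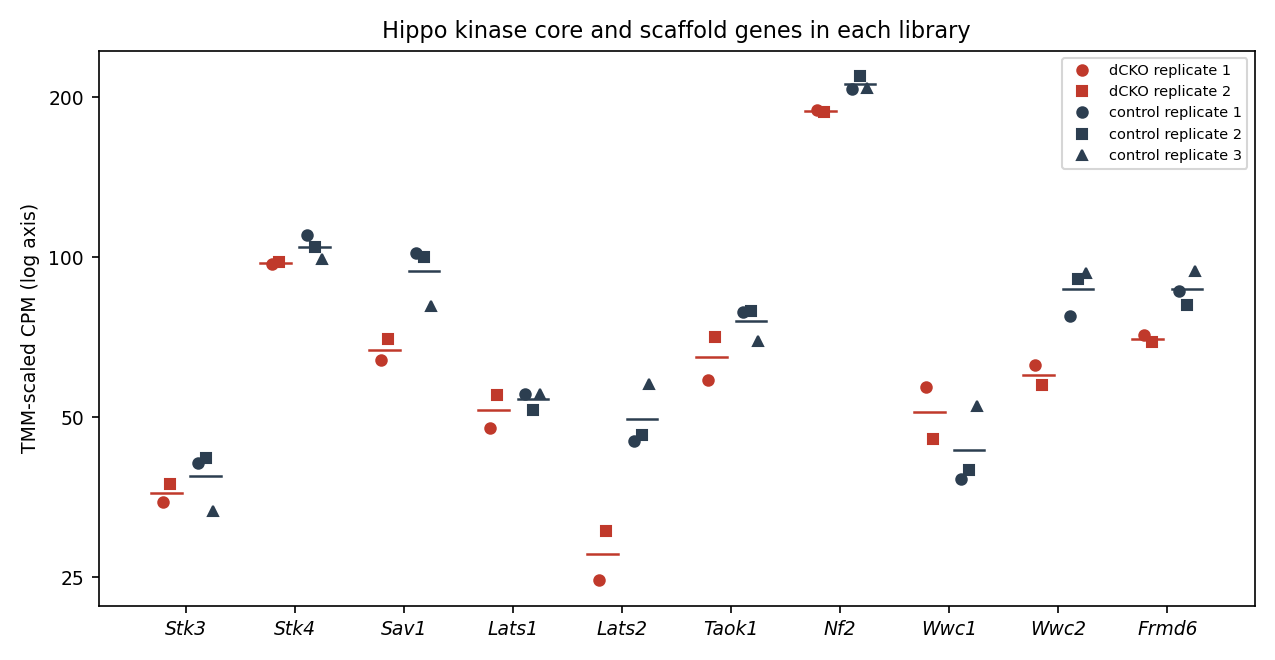
TMM-scaled CPM (log axis) of the 10 Hippo kinase core and scaffold genes, 1 point per library, dCKO left of control, with a bar at each group's mean. The dCKO points of Lats2 (24.6 and 30.5 CPM) lie below its control points (45.1 to 57.7 CPM), whereas those of Lats1 overlap.

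The 3 members that fell also have the letters of the TEAD core site in the promoter window of the reference sequence, and their windows are shown for that reason. Windows of 300 bases, 250 before to 50 after the annotated start, came from RefSeq (build GRCm38.p6, not the mm9 build of the counts) and were found for 9 of the 10 members. Capitals mark the letters GGAATG or, for the other strand, CATTCC.
Lats2, chr14:57746074-57746373, minus strand: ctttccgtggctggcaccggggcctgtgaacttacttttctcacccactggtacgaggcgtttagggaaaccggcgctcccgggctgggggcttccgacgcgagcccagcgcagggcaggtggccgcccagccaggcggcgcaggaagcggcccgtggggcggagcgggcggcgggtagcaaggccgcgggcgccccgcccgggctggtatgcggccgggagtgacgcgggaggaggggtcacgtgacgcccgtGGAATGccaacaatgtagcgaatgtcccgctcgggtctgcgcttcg
Sav1, chr12:69986953-69987252, minus strand: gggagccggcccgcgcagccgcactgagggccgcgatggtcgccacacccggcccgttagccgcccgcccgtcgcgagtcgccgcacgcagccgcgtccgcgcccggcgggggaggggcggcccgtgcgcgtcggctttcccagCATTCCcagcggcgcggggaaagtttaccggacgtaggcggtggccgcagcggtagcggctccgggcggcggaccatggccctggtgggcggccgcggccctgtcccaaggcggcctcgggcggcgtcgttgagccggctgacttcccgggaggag
Wwc2, chr8:47990495-47990794, minus strand: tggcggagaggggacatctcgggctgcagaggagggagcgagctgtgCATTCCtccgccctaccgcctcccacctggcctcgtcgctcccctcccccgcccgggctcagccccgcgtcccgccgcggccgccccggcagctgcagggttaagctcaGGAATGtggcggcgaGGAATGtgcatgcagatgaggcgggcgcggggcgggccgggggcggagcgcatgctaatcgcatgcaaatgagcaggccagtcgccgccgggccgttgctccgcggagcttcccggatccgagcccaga
The Lats2 match covered bases 5 to 10 after the start, and a further window listed for Lats2 had none. The Sav1 match began 106 bases before the start, and those of Wwc2 began 203, 94 and 79 bases before it. The windows listed for Lats1, Stk4, Nf2, Wwc1, Taok1 and Frmd6 held no such match. Stk3 is named only. Over the first window of 9434 tested genes, 12% held at least 1 match and 0.869% held 2 or more. The share with at least 1 match was 17.6% of 131 genes called lower and 14.1% of 482 genes called higher. Among 60 genes of the other pathway lists given below it was 16.7%. The motif and the windows were chosen with the members' values known, and a match describes letters, not binding.

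In the kinase core, Lats2 fell, and Lats1 did not pass the test. Lats2 had 24.6 and 30.5 CPM in dCKO replicates 1 and 2, against 45.1, 46.3 and 57.7 CPM in control replicates 1, 2 and 3. The groups did not overlap, and control replicate 3 was the highest library. Lats2 averaged 27.6 ± 4.15 CPM in dCKO tissue and 49.7 ± 6.92 CPM in control tissue (SD, n = 2 and 3). By edgeR the log2 fold change was −0.85 with an SE of 0.16, at an adjusted p of 0.00187. The call was lost without dCKO replicate 1, where the log2 fold change was −0.69 (edgeR adjusted p = 0.0772). The authors' deposited table gives Lats2 a fold change of 0.565 with an adjusted p of 0.00314.

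Lats1, the paralog with the same substrates, had 47.8 and 55.1 CPM in the dCKO libraries, against 55.4, 51.6 and 55.4 CPM in the controls. The groups overlapped. The log2 fold change of Lats1 was −0.07 (95% interval −0.35 to 0.21, edgeR adjusted p = 0.806). That interval does not reach the −0.85 of Lats2. The direction of Lats1 turned to 0.04 with the GC trend removed by ordinary loess, 0.10 by robust loess and 0.04 without dCKO replicate 1.

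Since reads of both genes come from the same library, their ratio does not depend on scaling. The ratio does not cancel a trend with GC content, which was 52.2% for the Lats2 transcript and 43.0% for that of Lats1. The log2 ratio of Lats2 to Lats1 counts was −0.96 and −0.85 in the dCKO libraries, against −0.29, −0.16 and 0.06 in the controls. Both dCKO values were lower than any control value, and the counting error of each was at most 0.11. The difference of the means was −0.77, larger than the SDs of 0.07 in dCKO and 0.18 in control libraries. The exact two-sided permutation test gave p = 0.2, and 0.3 adjusted over the 3 paralog pairs compared. This test doubles the one-sided p, and in that form 0.2 is its smallest value for 2 against 3 libraries. Per kb of transcript, Lats2 made up 42.6% ± 1.23 of the summed LATS level in dCKO and 55.9% ± 3.03 in control libraries (SD, n = 2 and 3). The summed LATS level was 11.4 and 13.5 CPM per kb in dCKO libraries, against 16.4, 16.1 and 18.8 CPM per kb in the controls. The groups did not overlap, and the ratio of the means was 0.729.

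Sav1, the adaptor that joins the MST kinases to LATS, fell as well. Its level was 64.0 and 70.0 CPM in the dCKO libraries, against 101.9, 100.2 and 81.0 CPM in the controls. The groups did not overlap, with control replicate 3 the lowest of the controls. Sav1 averaged 67.0 ± 4.30 CPM in dCKO and 94.4 ± 11.6 CPM in control tissue (SD, n = 2 and 3). By edgeR the log2 fold change was −0.49 with an SE of 0.13, at an adjusted p of 0.0255. The call of Sav1 was kept without control replicate 3 and lost without any other library (edgeR adjusted p up to 0.28). With the GC trend removed, its edgeR adjusted p was 0.0122 by ordinary loess, at a log2 fold change of −0.46, and 0.045 by robust loess, at −0.38. In the authors' deposited table Sav1 has a fold change of 0.722 and an adjusted p of 0.121.

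The MST kinase genes showed no difference that passed the test. Stk4 (MST1) had 97.1 and 98.0 CPM in the dCKO libraries, against 110.2, 104.7 and 99.3 CPM in the controls. The dCKO libraries were just below the lowest control. The log2 fold change of Stk4 was −0.10 (95% interval −0.35 to 0.14, edgeR adjusted p = 0.659). Stk3 (MST2) had 34.6 and 37.5 CPM in the dCKO libraries, against 40.9, 41.9 and 33.3 CPM in the controls. These groups overlapped. The log2 fold change of Stk3 was −0.10 (95% interval −0.42 to 0.21, edgeR adjusted p = 0.746) and turned to 0.02 by ordinary and 0.08 by robust loess on GC content. The log2 ratio of Stk4 to Stk3 was 1.49 and 1.39 in the dCKO libraries, against 1.43, 1.32 and 1.58 in the controls, a difference of means of −0.01 that is smaller than either group's SD (exact two-sided permutation test p = 1.0).

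**Figure D2:**
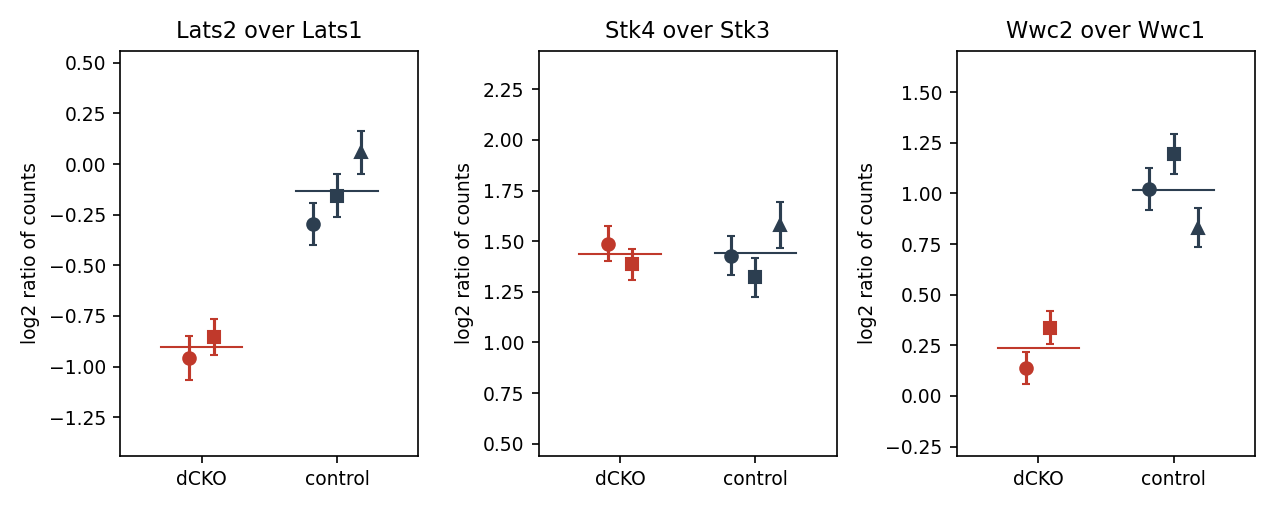
Log2 ratio of counts within each library for 3 paralog pairs, dCKO left of control, with error bars of 1 counting SE and a line at each group's mean. All panels span the same range of 2 log2 units. The dCKO points lie below the controls for Lats2 over Lats1 and for Wwc2 over Wwc1, and overlap for Stk4 over Stk3.

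Upstream of the core, Wwc2 of the KIBRA family fell, and Wwc1 did not pass the test. Wwc2, a WW and C2 domain scaffold that binds LATS, had 62.7 and 57.5 CPM in the dCKO libraries, against 77.5, 90.9 and 93.4 CPM in the controls. All control values were higher than the dCKO values. Wwc2 averaged 60.1 ± 3.65 CPM in dCKO and 87.3 ± 8.52 CPM in control tissue (SD, n = 2 and 3). By edgeR the log2 fold change was −0.54 with an SE of 0.13, at an adjusted p of 0.013. The call was lost without dCKO replicate 1, dCKO replicate 2 or control replicate 2 (edgeR adjusted p up to 0.179). The authors' deposited table gives Wwc2 a fold change of 0.702 and an adjusted p of 0.0469.

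Wwc1, which encodes KIBRA itself, had 56.9 and 45.5 CPM in the dCKO libraries, against 38.2, 39.7 and 52.5 CPM in the controls. The groups overlapped because control replicate 3 exceeded dCKO replicate 2. The log2 fold change of Wwc1 was 0.24 (95% interval −0.09 to 0.57, edgeR adjusted p = 0.405). It was 0.08 without dCKO replicate 1, 0.40 without dCKO replicate 2 and 0.39 without control replicate 3. With the replicate number as a block it was also 0.39, but there control replicate 3 has no partner, so that fit nearly repeats the previous. The Wwc1 value also depended on GC content. The log2 fold change turned to −0.07 with the GC trend removed by ordinary loess and was 0.06 by robust loess. None of these fits called Wwc1. The log2 ratio of Wwc2 to Wwc1 was 0.14 and 0.34 in the dCKO libraries, against 1.02, 1.19 and 0.83 in the controls. The groups did not overlap, and the difference of the means was −0.78, against SDs of 0.14 in dCKO and 0.18 in control libraries (exact two-sided permutation test p = 0.2, 0.3 adjusted over the 3 pairs). The summed level of both per kb was 19.8 and 16.7 CPM in dCKO libraries, against 17.4, 19.2 and 22.3 CPM in the controls, values that overlap. Epithelial markers were higher in the same dCKO libraries. In 10 of 13 epithelial genes both dCKO libraries were above every control, against 19.0% of all tested genes. Of the 13, 3 were called higher, against 5% of all tested genes. All 13 had log2 fold changes above 0, with a median of 0.45. Their summed level was 645.1 to 674.3 CPM in dCKO and 438.6 to 550.3 CPM in control libraries, none of the 13 being at 0. Their part in the values of Wwc1 was not tested.

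The remaining upstream genes had lower fitted levels in dCKO tissue but did not pass the test. Frmd6, a FERM domain protein related to fly Expanded, had 71.4 and 69.1 CPM in the dCKO libraries, against 86.2, 81.3 and 94.1 CPM in the controls. The groups did not overlap. Its log2 fold change was −0.31 (95% interval −0.56 to −0.06), with an unadjusted p of 0.0184 and an adjusted p of 0.138 by edgeR, where 21.5% of all tested genes had an unadjusted p below 0.05. Nf2, the gene of the tumour suppressor merlin, had 189.0 and 187.3 CPM in the dCKO libraries, against 207.7, 219.4 and 207.8 CPM in the controls. The groups did not overlap, and the log2 fold change of Nf2 was −0.17 (95% interval −0.41 to 0.07, edgeR adjusted p = 0.414). Nf2 was called lower with the GC trend removed by ordinary loess, at −0.39 (edgeR adjusted p = 0.0206). Taok1, a kinase that phosphorylates the MST kinases, had 58.8 and 70.7 CPM in the dCKO libraries, against 78.7, 79.3 and 69.4 CPM in the controls. These groups overlapped, and the log2 fold change of Taok1 was −0.23 (95% interval −0.50 to 0.05, edgeR adjusted p = 0.326), or −0.07 by ordinary and −0.02 by robust loess on GC content.

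**Figure D3:**
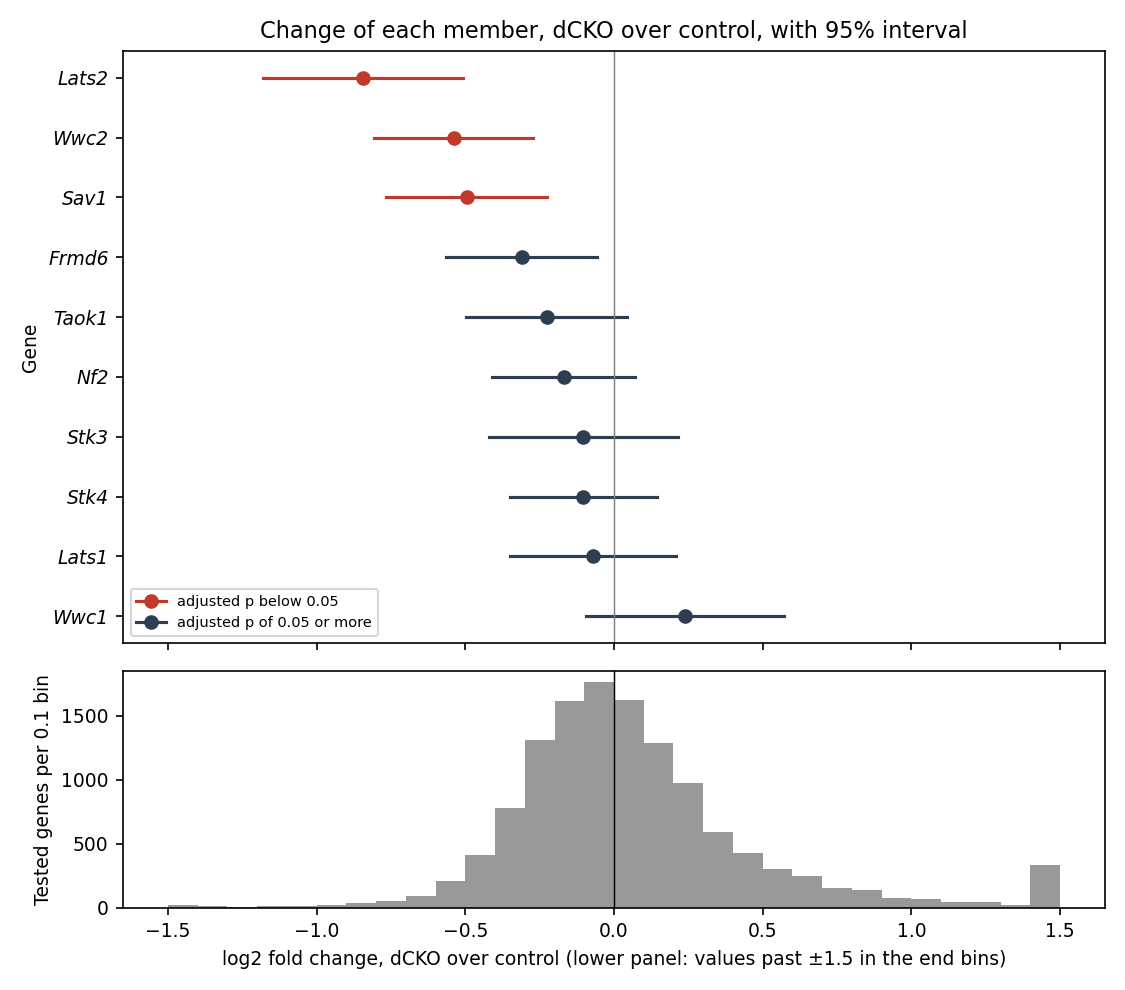
Upper panel, log2 fold change of each member in dCKO over control with its 95% interval from edgeR, in red where the adjusted p is below 0.05. Lower panel, the same quantity over all 12710 tested genes. Lats2, Wwc2 and Sav1 lie lowest, at −0.85, −0.54 and −0.49, and Wwc1 is the only member above 0, at 0.24.

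Between members, levels were compared per kb of the longest protein-coding transcript (2524 to 12409 bases), which may not be the transcript used in this tissue. In dCKO libraries the order was Nf2 (39.9 ± 0.26 CPM per kb), Sav1 (26.5 ± 1.70), Stk4 (18.6 ± 0.12), Frmd6 (15.1 ± 0.35), Stk3 (12.4 ± 0.69), Wwc1 (11.3 ± 1.79), Lats1 (7.14 ± 0.72), Wwc2 (6.92 ± 0.42), Lats2 (5.31 ± 0.80) and Taok1 (5.22 ± 0.68; SD, n = 2). In control libraries it was Nf2 (44.8 ± 1.42 CPM per kb), Sav1 (37.4 ± 4.61), Stk4 (20.02 ± 1.04), Frmd6 (18.7 ± 1.39), Stk3 (13.3 ± 1.62), Wwc2 (10.06 ± 0.98), Wwc1 (9.59 ± 1.73), Lats2 (9.58 ± 1.33), Lats1 (7.51 ± 0.30) and Taok1 (6.11 ± 0.45; SD, n = 3). Neighbours whose libraries overlapped were Stk3 and Wwc1, Lats1 and Wwc2, and Lats2 and Taok1 in dCKO tissue. In control tissue they were Stk4 and Frmd6, as well as Wwc2, Wwc1 and Lats2. Lats2 was above Lats1 in every control library and below it in both dCKO libraries on this scale.

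The pattern of each called member over the 5 libraries was compared with that of 10726 other genes averaging at least 5 CPM, as the Euclidean distance between log2 CPM profiles centred on their means. The genes nearest to Lats2 were Dlx6, Rab39b and Scd1 (distances 0.201, 0.225 and 0.237). Those nearest to Sav1 were Cbfb, Ptbp2 and Cul2 (0.0453, 0.0564 and 0.0673), and those nearest to Wwc2 were 2610305D13Rik, Sdc2 and Zscan18 (0.0727, 0.0939 and 0.0984). The genes nearest to Lats2 and Sav1 were called lower. Those nearest to Wwc2 had log2 fold changes of −0.55, −0.50 and −0.51 but were not called (edgeR adjusted p = 0.288, 0.0809 and 0.139). Genes picked by profile share the member's direction through that choice. With 5 libraries such distances describe shape only.

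Other genes of the pathway did not move as 1 block. In 6 further lists, 86 genes were tested, of which 2 were called lower and 5 higher, with a median log2 fold change of −0.06. Of all tested genes, 1.42% were called lower and 5% higher. List medians were −0.226 for motins and the Ajuba family, −0.157 for YAP and TAZ retention and turnover and −0.086 for the STRIPAK phosphatase complex. They were −0.060 for FERM and ERM relatives of Nf2, 0.030 for LATS cofactors and parallel kinases and 0.098 for polarity and cadherin inputs. A median below 0 was thus not particular to the members. Among 17 LATS cofactors and parallel kinases, Tnik and Taok3 rose and 0 were called lower. Tnik, a kinase of the MAP4K family, had 18.3 and 19.6 CPM in the dCKO libraries, against 10.8, 9.46 and 11.4 CPM in the controls. The edgeR difference of Tnik was 0.84 on the log2 scale with an SE of 0.20, at an adjusted p of 0.0126. Tnik did not pass without dCKO replicate 1, dCKO replicate 2 or control replicate 2 (adjusted p up to 0.117). Taok3, a relative of Taok1, had 11.6 and 16.4 CPM in the dCKO libraries, against 7.87, 9.46 and 6.26 CPM in the controls. By edgeR it differed by 0.83 on the log2 scale with an SE of 0.25, at an adjusted p of 0.0486. Taok3 did not pass with the replicate number as a block (0.0544), in DESeq2 (0.0683), with library totals alone (0.069), with the GC trend removed (0.0805 by ordinary and 0.0609 by robust loess), or without dCKO replicate 1, dCKO replicate 2, control replicate 1 or control replicate 3 (up to 0.4). The LATS cofactors Mob1a and Mob1b measured 43.9 and 20.8 CPM in dCKO and 41.7 and 18.5 CPM in control tissue and did not pass. Both were named after their values were seen.

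STRIPAK, a phosphatase complex that opposes the MST kinases, had 1 of 15 tested genes lower and 0 higher. Ppp2ca, a catalytic subunit of protein phosphatase 2A, had 405.1 and 399.3 CPM in the dCKO libraries, against 652.8, 567.5 and 457.1 CPM in the controls. The edgeR difference of Ppp2ca was −0.48 on the log2 scale with an SE of 0.13, at an adjusted p of 0.0337. That call was kept without control replicate 3. It was lost without each other library (adjusted p up to 0.247) and with the GC trend removed by robust loess (0.085), but not by ordinary loess (0.0272). Of 18 genes of YAP and TAZ retention and turnover, edgeR called 0. An unadjusted edgeR p below 0.05 was found for 8 of the 18, against 21.5% of all tested genes. Of these 8, Sfn and Btrc were higher in dCKO tissue and the rest lower. The smallest p was that of Ywhab, a 14-3-3 protein that holds phosphorylated YAP in the cytoplasm, with 473.9 and 458.2 CPM in the dCKO libraries, against 656.7, 648.1 and 518.9 CPM in the controls (edgeR adjusted p = 0.0598). Ywhab passed in DESeq2 (0.0365) and limma-voom (0.0499). It also passed by edgeR with library totals alone (0.0251), no filter on low counts (0.0207) or the GC trend removed by ordinary loess (0.0203). Ywhab passed as well without control replicate 3 (0.00518) and with the replicate number as a block (0.00366), which are nearly the same fit. Of 6 genes of the motin and Ajuba families, which bind YAP or LATS, 1 fell and 0 were called higher. Amotl2, a motin, had 82.8 and 96.5 CPM in the dCKO libraries, against 109.4, 125.8 and 174.1 CPM in the controls. By edgeR it differed by −0.60 on the log2 scale with an SE of 0.16, at an adjusted p of 0.0312. Its call was lost without dCKO replicate 1, dCKO replicate 2 or control replicate 3 (adjusted p up to 0.312).

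Of 20 polarity and cadherin inputs 1 rose and 0 were called lower, the same share as the 5% of all tested genes called higher. Llgl2, a basolateral polarity scaffold, had 50.9 and 41.1 CPM in the dCKO libraries, against 19.8, 23.6 and 27.8 CPM in the controls. The edgeR difference of Llgl2 was 0.96 on the log2 scale with an SE of 0.17, at an adjusted p of 8.57e-04. Of 10 FERM and ERM relatives of Nf2, 2 rose and 0 were called lower. Ezr (ezrin) had 83.1 and 93.7 CPM in the dCKO libraries, against 59.0, 60.1 and 58.1 CPM in the controls. By edgeR it differed by 0.58 on the log2 scale with an SE of 0.12, at an adjusted p of 0.00435. Slc9a3r1, a scaffold that binds ezrin, had 46.7 and 36.2 CPM in the dCKO libraries, against 23.1, 25.5 and 28.7 CPM in the controls. By edgeR it differed by 0.69 on the log2 scale with an SE of 0.16, at an adjusted p of 0.0134. For these 3 genes the groups did not overlap. The epithelial markers given beside Wwc1 moved with them, and their part in these values was not tested. With the GC trend removed by ordinary loess, Llgl2 was at 0.61 and Ezr at 0.38, and both were called. Ezr lost its call without dCKO replicate 2 (0.121), and Slc9a3r1 without dCKO replicate 1 or control replicate 1 (up to 0.28) and with the GC trend removed (0.146 by ordinary and 0.0712 by robust loess).

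**Figure D4:**
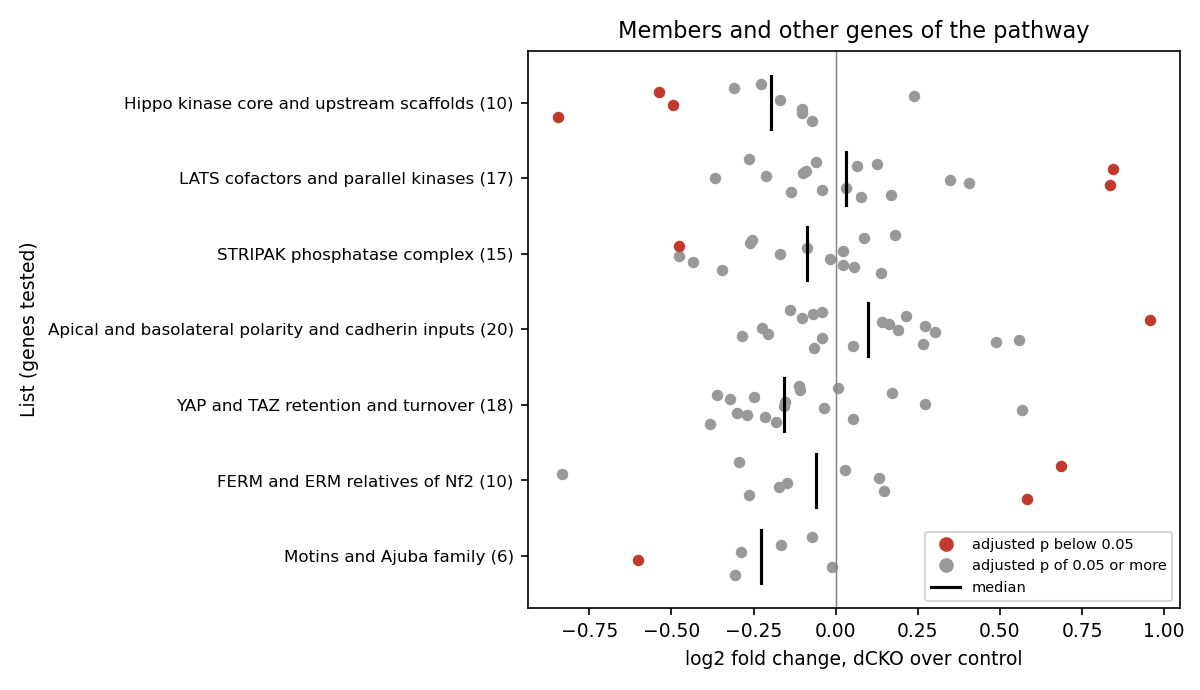
Log2 fold change in dCKO over control of the 10 members and of 86 other tested genes in 6 pathway lists, 1 point per gene, in red where the edgeR adjusted p is below 0.05, with a line at each list's median. The members' median is −0.198, and 5 genes called higher lie in the lists of parallel kinases, polarity and FERM relatives.

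**Figure D5:**
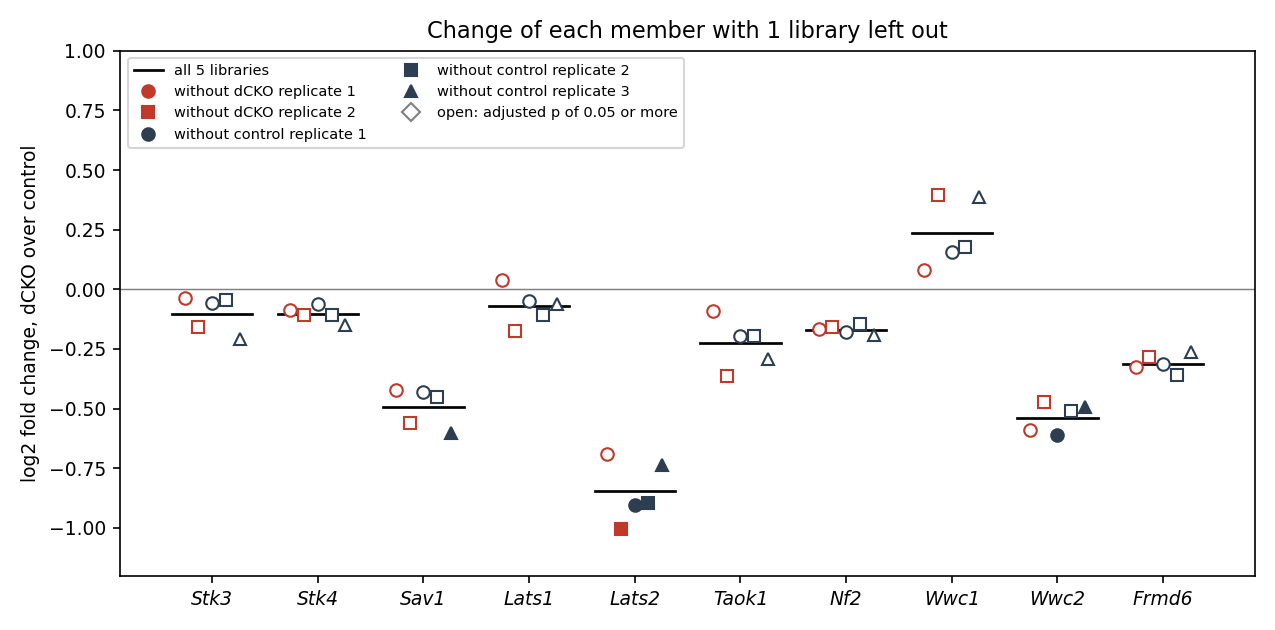
Log2 fold change of each member in dCKO over control with all 5 libraries (line) and with 1 library left out (points, filled where the edgeR adjusted p is below 0.05). Lats2 ranges from −1.01 to −0.69 and is called in 4 of 5 fits, Wwc2 in 2 of 5 and Sav1 in 1 of 5.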

How the data were processed

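Per the labels' protocols, poly(A) RNA of E10.5 mandibular tissue was sequenced from Ion Total RNA-Seq v2 libraries. Raw read counts per gene symbol were used as the authors deposited them. HTSeq 0.5.4p3, DESeq 1.16.0 and mm9 are named per the submitters' processing notes. Aligner, annotation and strand setting: not given in the sources used here. Without them, reads of overlapping or antisense partners cannot be told apart. The authors' deposited comparison holds a signal (mean normalized counts), a fold change, its log2 value, and p-values, per the file headers. Columns headed WT were matched to control titles by replicate number.

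Genes were filtered with filterByExpr (minimum count 10, minimum total 15) and compared with edgeR 4.0.16 (TMM, quasi-likelihood F test, two-sided, Benjamini-Hochberg over all 12710 tested genes) in R 4.3.3. Adjusted p-values are from this test unless named. SE was taken as the log2 fold change, without sign, divided by the root of its F statistic. Alternatives were RLE, library totals, DESeq2 1.42.0, limma-voom (limma 3.58.1), other filters, each library left out, the replicate number as a block, erythroid genes left out, and each library's trend with transcript GC content removed by ordinary loess (GC known for 99.3% of tested genes). Chosen after seeing the data were a robust loess, tried because the ordinary one moved the median of all genes, and the fit without rows whose symbol had become a date, which was run first and replaced by the fit on all rows. A fit with 1 dCKO library assumes that it varies as the controls do. In the block fit, control replicate 3 is alone under its number and adds nothing to the group difference. Libraries of the same group differed by more than counting error (chi-square per gene between 4.43 and 14.1). This does not show that they came from separate embryos. Transcript lengths came from GENCODE M21.

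Members, lists, motif and tests were chosen with earlier results of these data known. Genes named were the members, Yap1, Wwtr1, Hand1, called genes of each other pathway list (up to 5, or the smallest p), and the 3 nearest profiles of each called member.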

Additional observations from a re-analysis of the deposited data

How the results depend on the processing

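Over all genes, 180 were called lower and 636 higher. The lower count was 472 with library totals alone and 305 with no filter on low counts. Removing the GC trend by ordinary loess gave 656 lower, moved the median of all genes to −0.10 and called Nf2 besides the other members called. Robust loess, chosen after seeing that result, gave 153 lower and 561 higher. Leaving out date-like symbols, the fit run first, gave 161 lower and 652 higher. With the replicate block, 921 genes were lower and 1200 higher. With 1 library left out, 39 to 687 genes were lower and 403 to 950 higher, and 0 to 3 members were lower, fewest without dCKO replicate 1 and most without control replicate 3. Under the other 10 settings 3 members were called lower and 0 higher, the replicate block included, which changed no member's call. That block nearly repeats the fit without control replicate 3 (Lats2 at −0.73 in both) and is no separate check. The numbers pair only 2 samples in each group. The correlation of deviations from group means was 0.162 for number 1 and −0.105 for number 2. With 2 dCKO libraries, the deviations of dCKO replicate 2 are those of dCKO replicate 1 with the sign turned. These correlations therefore cannot show whether samples of equal number are paired.

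The difference in log2 ratio ran from −0.856 to −0.68 for Lats2 over Lats1, −0.878 to −0.678 for Wwc2 over Wwc1 and −0.0663 to 0.0619 for Stk4 over Stk3 with 1 library left out. Under the replicate block, which leaves out control replicate 3, it was −0.68, −0.87 and 0.0619, the same as without that library. Stk4 over Stk3 thus turned sign, also at 0.0451 without dCKO replicate 2, and the cause was not tested. The ratios were not computed with the GC trend removed. In those fits Lats2 was at −1.02 by ordinary and −0.89 by robust loess, and Wwc2 at −0.63 and −0.52. Lats1 was at 0.04 and 0.10, and Wwc1 at −0.07 and 0.06. The gap between paralogs was thus wider for the LATS pair and narrower for the KIBRA pair than in the main fit. Lats1 ranged from −0.175 to 0.038 with 1 library left out and was 0.0978 by robust loess, where Stk3 was 0.0808 (edgeR adjusted p = 0.74 and 0.808). By ordinary loess Lats1 was 0.0357, Stk3 0.021 and Wwc1 −0.0748 (edgeR adjusted p = 0.894, 0.944 and 0.781). With 2 dCKO libraries, the 95% intervals of the 6 members below 0 that were not called reached −0.35 to −0.56, so drops of up to those sizes are not excluded for them.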
